A study of Drosophila melanogaster with 14 samples.

Results

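The genes hgo, Hpd and Faa encode the dioxygenases and the hydrolase of the tyrosine breakdown route, and their RNA levels are described here over 4 genotypes of whole larvae of Drosophila melanogaster. They were taken by gene symbol, and they make up 3 of 17869 genes in the table and 3 of 12586 genes tested. They were chosen by their high log2 CPM in the septin double mutant against the control, so their own levels and differences are given as a description, without a test. Polyadenylated RNA was sequenced from 14 libraries of larvae of the last instar. Of these, 4 came from the control stock w1118, 3 from Sep2[2] mutants, 3 from Sep5[2] mutants and 4 from Sep2[2];Sep5[2] mutants, which the series describes as homozygous for both alleles and which are called the double mutant below. Septins are GTP-binding proteins that form filaments at membranes and along the cytoskeleton. No treatment was applied. Whether a stock is 1 line, how many larvae were pooled for a library, and which stock background the alleles were kept in are left unsaid in the sources used here.

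Animals break down surplus tyrosine to products that feed energy metabolism. Phenylalanine is first hydroxylated to tyrosine, and an aminotransferase makes 4-hydroxyphenylpyruvate from it. Hpd, 4-hydroxyphenylpyruvate dioxygenase, turns this into homogentisate. The ring of homogentisate is opened by hgo, homogentisate dioxygenase, an isomerase of the zeta class of glutathione transferases follows, and Faa, fumarylacetoacetase, splits the last intermediate into fumarate and acetoacetate. In people, loss of the dioxygenase of homogentisate causes alkaptonuria, and loss of fumarylacetoacetase causes a tyrosinemia. Insects also draw on tyrosine to tan and harden new cuticle, through dopa, dopamine and their derivatives, so breakdown and tanning use the same amino acid.

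Reads assigned to genes numbered 8858393 in the shallowest library, double mutant replicate 3, and 47203028 in the deepest, Sep5 mutant replicate 2. Values are given as CPM, read counts relative to library size after the authors' scaling between libraries, or as log2 CPM. Double mutant libraries had scaling factors of 0.799 to 0.843 and control libraries of 1.08 to 1.22. Mitochondrial large ribosomal RNA made up 10.6% to 24.9% of double mutant reads against 4.74% to 9.83% of control reads. The part of these differences in the results below was not tested. The mutated gene Septin5 had 2 reads over the 3 Sep5 mutant libraries and 34 over the double mutant, against 656 in the control. Septin2 stood at 0.270 to 0.726 CPM in double mutant replicates 1 to 3 and at 9.11 CPM in replicate 4, against 46.6 to 67.2 CPM in the control and 21.7 to 29.4 CPM in the Sep2 mutant. The sample labels name larvae while the protocol text speaks of adult flies. Of 7 adult markers, the odorant-binding protein gene Obp99b was at 1086 to 4758 CPM and the yolk protein gene Yp3 at 0.341 to 2.90 CPM, and the other 5 (Yp1, Yp2, Cp36, Cp38 and ninaE) were at or below 0.803 CPM in every library. Markers of the larval salivary gland summed to 1483 CPM or more in every library. The labels do not say whether libraries of 1 genotype hold separate animals or cultures. A p-value here therefore measures only how far these libraries spread, which may be technical.

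Coordinates are those of the BDGP6 build. Hpd (FBgn0036992) lies on the minus strand of chromosome 3L from 20438166 to 20439872, with 2 annotated transcripts and 1518 bases of exon. hgo (FBgn0040211) lies on the plus strand of chromosome 2L from 11136393 to 11138565, with 1 transcript and 1445 bases of exon. Faa (FBgn0016013) lies on the minus strand of chromosome 3L from 4072032 to 4073954, with 1 transcript and 1421 bases of exon. No annotated gene overlaps hgo or Faa. Hpd overlaps CtIP and lncRNA:CR45176 on the other strand, and the strand setting of the read counting was not given in the sources used here. CtIP, which encodes a DNA end resection factor, differed by -0.01 on the log2 scale between the double mutant and the control (SE 0.17, adjusted p = 0.964 by limma), and lncRNA:CR45176 had 0 reads in every library.

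Hpd makes homogentisate. In the control its level was 2.62, 6.09, 5.77 and 2.16 CPM in replicates 1 to 4. In the Sep2 mutant it was 3.08, 3.33 and 6.32 CPM, and in the Sep5 mutant 12.7, 3.53 and 9.71 CPM. In the double mutant it was 49.8, 61.4, 93.6 and 83.9 CPM. All 4 double mutant libraries lay above every other library, and replicates 1 and 3 of the Sep5 mutant lay above every control library, while replicate 2 lay among them. The mean was 4.16 ± 2.05 CPM (SD, n = 4) in the control and 72.2 ± 20.1 CPM (SD, n = 4) in the double mutant, a difference of 4.19 on the log2 scale or 18.2-fold. The lowest double mutant library was 8.18 times the highest control library. The difference was the 48th highest among the 12586 genes tested.

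hgo opens the aromatic ring, the step that commits the carbon to fumarate and acetoacetate. In the control its level was 2.23, 1.60, 8.40 and 0.660 CPM in replicates 1 to 4, the widest spread of the 3 enzymes in this genotype on the log2 scale (SD 1.46, against 0.75 for Hpd and 0.97 for Faa). The lowest of these rests on 18 reads, with a 95% exact counting interval of 0.391 to 1.04 CPM, and such intervals cover counting error only. In the Sep2 mutant hgo was at 3.75, 3.58 and 7.35 CPM, in the Sep5 mutant at 4.63, 2.54 and 5.00 CPM, and in the double mutant at 82.1, 93.9, 109.9 and 52.5 CPM. Every double mutant library lay above every other library, and control replicate 3 was the highest of the rest. The mean was 3.22 ± 3.51 CPM (SD, n = 4) in the control and 84.6 ± 24.3 CPM (SD, n = 4) in the double mutant. The mean log2 difference was 5.201, or 36.8-fold, the 23rd highest of 12586, and the lowest double mutant library was 6.25 times the highest control library. The size depends on the control libraries: the log2 difference was 5.84 without control replicate 3 and 4.67 without control replicate 4. With 1 CPM added before logs were taken it was 4.57.

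Faa carries out the last step. In the control its level was 4.18, 11.5, 11.6 and 3.15 CPM, with replicates 2 and 3 above replicates 1 and 4, as for Hpd. It was at 3.81, 5.44 and 9.74 CPM in Sep2 mutant libraries, at 12.7, 11.6 and 14.7 CPM in the Sep5 mutant and at 40.1, 36.5, 45.3 and 65.2 CPM in the double mutant. The double mutant again lay above all other libraries. The mean was 7.61 ± 4.57 CPM (SD, n = 4) in the control and 46.8 ± 12.8 CPM (SD, n = 4) in the double mutant, a log2 difference of 2.80 or 6.95-fold, the 232nd highest of 12586. The lowest double mutant library was 3.15 times the highest control library. Of all genes tested, 20.6% had all double mutant libraries above all control libraries, as had 3 of 3 of these enzymes, which were chosen with this contrast known. In whole animals, more cells of a type and more RNA per cell cannot be told apart.

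**Figure D1:**
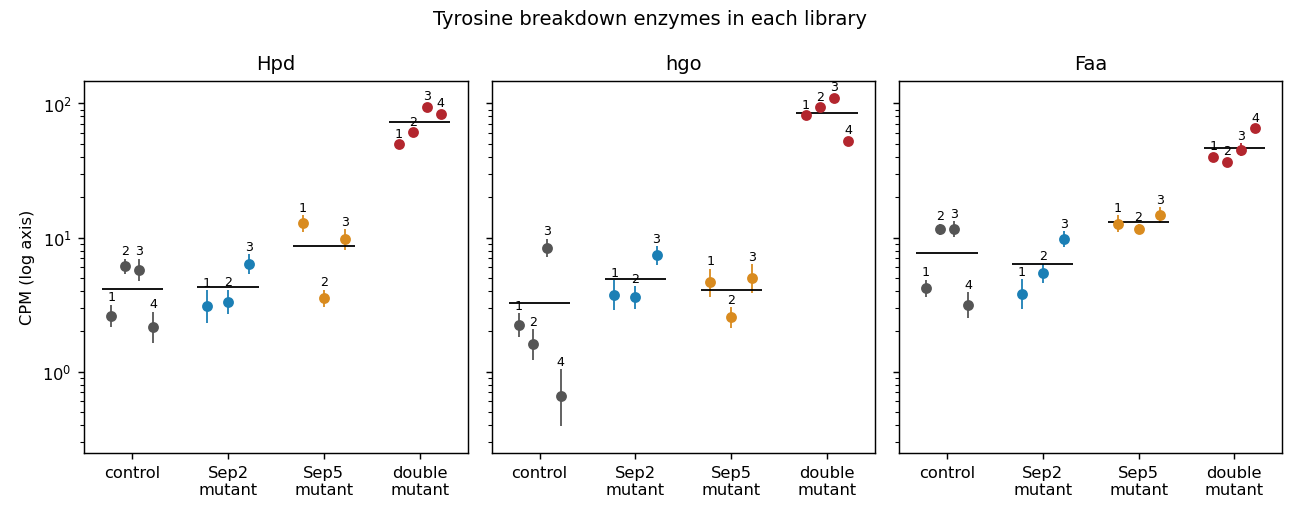
Level of Hpd, hgo and Faa in each of the 14 libraries, as CPM on a log axis, by genotype. Points are libraries numbered by replicate, bars are 95% exact counting intervals and horizontal lines are group means. The double mutant libraries lie at 49.8 to 93.6 CPM for Hpd, 52.5 to 109.9 CPM for hgo and 36.5 to 65.2 CPM for Faa, above all others.

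The single mutants stood much closer to the control. For hgo, the mean log2 difference from the control was 1.08 in the Sep2 mutant and 0.84 in the Sep5 mutant, against a pooled SD of 1.19 and 1.18 between libraries, and the groups overlapped. For Hpd it was 0.09 in the Sep2 mutant (pooled SD 0.68) and 0.999 in the Sep5 mutant (pooled SD 0.84), with overlap in both. For Faa it was -0.14 in the Sep2 mutant (pooled SD 0.86), with overlap, and 0.99 in the Sep5 mutant (pooled SD 0.76). The differences of Hpd and Faa in the Sep5 mutant were thus larger than the pooled SD, and the other 4 were smaller. Only Faa in the Sep5 mutant, of these 6 pairs of groups, showed no overlap with the control, and by the narrowest of margins: its lowest library, with a counting interval of 10.7 to 12.6 CPM, was 1.003 times the highest control library, with an interval of 10.1 to 13.2 CPM. Of all genes tested, 9.84% had all Sep5 mutant libraries above the control and 13.4% all Sep2 mutant libraries. Ordered by mean, hgo went from control to Sep5 mutant to Sep2 mutant to double mutant, Hpd from control to Sep2 mutant to Sep5 mutant to double mutant, and Faa from Sep2 mutant to control to Sep5 mutant to double mutant. Below the double mutant, neighbours in these orders overlapped, apart from control and Sep5 mutant for Faa. Their means differed by less than the pooled SD except for that pair and for the Sep2 and Sep5 mutants in Hpd, which were 0.91 apart (pooled SD 0.79).

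Set against the single mutants, the double mutant was higher for all 3 enzymes without overlap. Against the Sep2 mutant the log2 differences were 4.10 for Hpd, 4.12 for hgo and 2.94 for Faa, where 20.4% of all genes tested were higher in the double mutant without overlap. Against the Sep5 mutant they were 3.19, 4.36 and 1.81 in the same order, where 12.2% of all genes were. The closest approach was for Faa, whose lowest double mutant library was 2.48 times the highest Sep5 mutant library. The log2 difference between double mutant and control exceeded the sum of the differences of both single mutants by 3.10 for Hpd, 3.28 for hgo and 1.95 for Faa. Septin2 RNA was at 21.7 to 29.4 CPM in the Sep2 mutant but at 0.270 to 9.11 CPM in the double mutant. The sum therefore does not set equal levels of Septin2 RNA side by side. These comparisons share libraries, the control in some and the double mutant in others, and are not independent of each other. Leaving out double mutant replicate 4, the library with more Septin2 reads, gave log2 differences from the control of 4.10 for Hpd, 5.41 for hgo and 2.63 for Faa.

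The enzymes did not stand in the same proportion in all genotypes. Per kilobase of exon, the control means were highest for Faa at 5.36 ± 3.22, then Hpd at 2.74 ± 1.35 and hgo at 2.23 ± 2.43 CPM per kilobase (SD, n = 4), with ranges that overlapped. In the double mutant the order was turned round, with hgo at 58.5 ± 16.8, Hpd at 47.5 ± 13.2 and Faa at 32.9 ± 9.0 CPM per kilobase (SD, n = 4), again with overlap between libraries. The ratio of Hpd to Faa, per kilobase, was 0.466 to 0.642 in the control and 1.16 to 1.94 in the double mutant. It was 0.573 to 0.758 in the Sep2 mutant, and in the Sep5 mutant it was 0.285 to 0.941, so the double mutant lay above all other libraries. The ratio of hgo to Faa was 0.137 to 0.713 in the control and 0.792 to 2.53 in the double mutant, where replicate 4 alone was below 1. It was 0.647 to 0.968 in the Sep2 mutant, which overlapped the double mutant, and 0.215 to 0.360 in the Sep5 mutant, which did not. The ratio of hgo to Hpd overlapped between the control, at 0.276 to 1.53, and the double mutant, at 0.657 to 1.73. In the Sep2 mutant it kept within 1.13 to 1.28, and in the Sep5 mutant within 0.382 to 0.756.

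**Figure D2:**
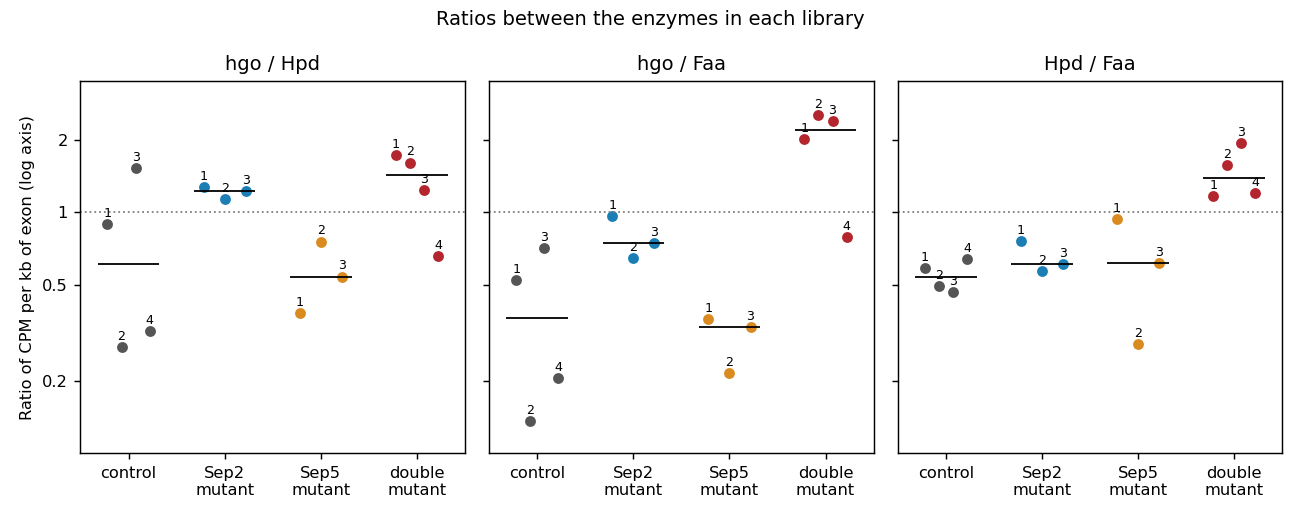
Ratios between the 3 enzymes in each library, from CPM per kilobase of exon, on a log axis. Points are libraries numbered by replicate, horizontal lines are group medians and the dotted line marks equal levels. For Hpd to Faa the double mutant lies above all other libraries, and for hgo to Faa double mutant replicate 4, at 0.792, lies apart from the other double mutant libraries.

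Some markers of other cell types and of development differed in the double mutant, and their part in the levels above was not tested. Called against the control were 30% of Malpighian tubule, 40% of larval cuticle and 0% of neuron markers, beside 45.0% of all genes tested. With 10, 5 and 5 genes tested in these lists, 1 gene more or less moves such a share by much. All the tubule markers called were higher, 30% beside 22.5% of all genes tested. Of 10 fat body markers, 5 rose and 1 fell in the double mutant against the control, where 45.0% of all genes tested were called, 22.5% higher and 22.5% lower. Their summed level was 19042 to 32424 CPM in the control, with 36279 to 46817 CPM for the Sep2, 32367 to 58261 CPM for the Sep5 and 33629 to 59283 CPM for the double mutant. The ranges of all 3 mutants overlapped. Of 10 Malpighian tubule markers, 3 rose and 0 fell, and their sum went from 264 to 272 CPM in the control to 363 to 440 CPM in the double mutant, against 206 to 293 CPM in the single mutants. Of 10 midgut markers 8 rose and 1 fell, of 8 hemocyte markers 5 rose and 0 fell, of 7 muscle markers 6 rose and 0 fell, and of 5 neuron markers none was called. Summed levels in the control and the double mutant were 2182 to 3937 and 3236 to 5095 CPM for the midgut, 351 to 737 and 936 to 1315 CPM for hemocytes, 6792 to 20743 and 28367 to 54490 CPM for muscle, and 236 to 368 and 270 to 354 CPM for neurons. Salivary gland markers had 3 of 9 higher and 5 lower, with sums of 4513 to 17653 CPM in the control and 1483 to 6872 CPM in the double mutant. Larval cuticle markers had 1 higher and 1 lower of 5 tested, with sums of 8017 to 23256 and 11166 to 17904 CPM. No marker of these tissues was at 0 reads over the libraries of any genotype. Of 15 genes of the response to ecdysone, the steroid hormone of moulting and metamorphosis, 13 fell and 1 rose, and their sum was 3307 to 5779 CPM in the control and 911 to 1160 CPM in the double mutant. This last list was chosen after the data were seen.

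Other enzymes of the breakdown route rose in the double mutant, by less than Hpd, hgo and Faa, which were chosen for their difference there. Each of the 3 that could be tested was higher, beside 22.5% of all genes tested. Hn, the phenylalanine hydroxylase that supplies tyrosine, was at 41.9, 41.6, 68.7 and 68.5 CPM in the control and at 104, 218, 114.6 and 157 CPM in the double mutant (log2 fold change 1.41, SE 0.25, adjusted p = 0.000568). The groups did not overlap. GstZ1, a glutathione transferase of the zeta class that isomerizes maleylacetoacetate, was at 2.81 to 3.85 CPM in the control and at 6.44 to 11.7 CPM in the double mutant (1.21, SE 0.23, adjusted p = 0.00111). GstZ2, the second gene of that class, was at 29.1 to 54.7 CPM in the control and at 71.5 to 107 CPM in the double mutant (1.17, SE 0.20, adjusted p = 0.000486). Both were without overlap. Tat, the tyrosine aminotransferase gene on chromosome X from 14261223 to 14265379, had 0 of 344190220 reads over all libraries, which allows a level of up to 0.00854 CPM. Its span overlaps CG13404 on the other strand and CG46317 on its own strand, and the handling of reads in shared exons was not given in the sources used here. This 0 cannot be told apart from reads left uncounted.

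In the single mutants GstZ1 was called in both, Hn in the Sep2 mutant alone and GstZ2 in neither. Of all genes tested, 4.50% were called in the Sep2 mutant and 5.13% in the Sep5 mutant. GstZ1 rose to 8.22 to 10.02 CPM in the Sep2 mutant (1.45, SE 0.25, adjusted p = 0.00350) and to 5.98 to 9.94 CPM in Sep5 mutant libraries (1.12, SE 0.25, adjusted p = 0.0196). The double mutant differed from the Sep2 mutant by -0.24 (SE 0.25, adjusted p = 0.478) and from the Sep5 mutant by 0.09 (SE 0.25, adjusted p = 0.846) for this gene. Hn rose in the Sep2 mutant (1.08, SE 0.27, adjusted p = 0.0309), to 102 to 128 CPM, and differed by 0.56 in the Sep5 mutant (SE 0.27, adjusted p = 0.248). For GstZ2 the log2 difference from the control was 0.09 in the Sep2 mutant and -0.30 in the Sep5 mutant, and the double mutant was higher than the Sep2 mutant (1.08, SE 0.21, adjusted p = 0.00265) and the Sep5 mutant (1.47, SE 0.21, adjusted p = 0.000997). For Hn in the Sep2 mutant the call was lost without control replicates 1 (adjusted p = 0.0958) and 2 (0.0905) and without Sep2 mutant replicates 1 (0.0956), 2 (0.0653) and 3 (0.136). It was also lost without the filter on low values (0.0680) and after centring on the library median (0.0531). The call for GstZ1 in Sep5 mutant larvae failed without control replicates 1 (0.0590) and 2 (0.0522) and Sep5 mutant replicates 1 (0.11) and 3 (0.0564), and with only the libraries of both groups (0.0585).

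**Figure D3:**
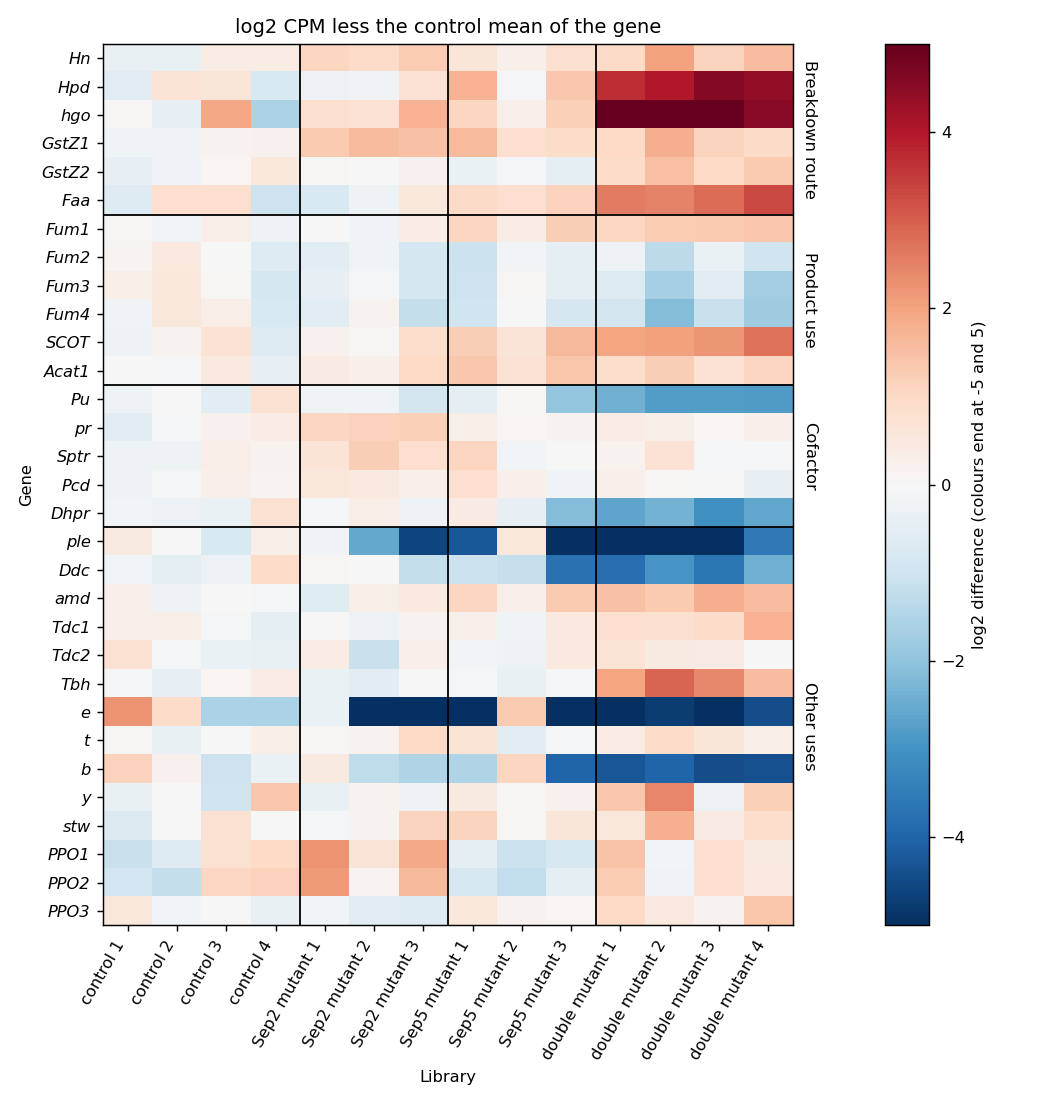
Difference of log2 CPM from the control mean of each gene, in each library, for the breakdown route, use of its products, the tetrahydrobiopterin cofactor and other uses of tyrosine. Red is higher and blue lower, with colours ending at 5 in either direction. Hpd, hgo and Faa are deep red in the double mutant columns, while ple, e and b are deep blue there and in some single mutant libraries.

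The products of the route are fumarate and acetoacetate, and genes that use them rose in part. Of 7 such genes 4 rose and 2 fell, where 22.5% of all genes tested rose and 22.5% fell. Their median log2 fold change was 0.98, beside -0.01 over all genes tested. SCOT, the transferase that activates acetoacetate for oxidation, was at 16.0, 21.8, 31.9 and 12.4 CPM in the control and at 75.3, 80.4, 88.8 and 128 CPM in the double mutant (2.24, SE 0.30, adjusted p = 8.60e-05). The groups did not overlap. Its Sep5 mutant libraries were at 30.4 to 59.1 CPM, a difference of 1.17 from the control (SE 0.32, adjusted p = 0.0505). Acat1, an acetoacetyl-CoA thiolase, rose (0.98, SE 0.23, adjusted p = 0.00346). Among fumarases, Fum1 rose (1.24, SE 0.20, adjusted p = 0.000358), with 67.8 to 100.1 CPM in the control and 165 to 206 CPM in the double mutant. Fum4 fell (-1.49, SE 0.37, adjusted p = 0.00510), as did Fum3 (-1.16, SE 0.35, adjusted p = 0.0158), at 4.78 to 11.2 and 12.3 to 28.8 CPM in the double mutant. The call for Fum3 was lost without control replicate 2 (0.0515), double mutant replicate 2 (0.0507) or double mutant replicate 4 (0.0519).

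Hydroxylation of phenylalanine and of tyrosine needs the cofactor tetrahydrobiopterin, which a small set of genes makes and recycles. Of 5 tested, 0 rose and 2 fell in the double mutant, a share called close to the 45.0% of all genes tested, with a median of -0.02. Pu, the GTP cyclohydrolase that starts the synthesis, was at 372, 446, 297 and 750.4 CPM in the control and at 84.0, 63.8, 62.4 and 62.3 CPM in the double mutant (-2.70, SE 0.38, adjusted p = 0.000122). Dhpr, the reductase that recycles the cofactor, was at 183 to 387 CPM in the control and at 27.6 to 44.3 CPM in the double mutant (-2.65, SE 0.42, adjusted p = 0.000288). Neither gene's groups overlapped. Both were also lower in the double mutant than in the Sep2 mutant, by 2.27 and 2.64 on the log2 scale (adjusted p = 0.00136 and 0.00105). The gene pr, for the pyruvoyl tetrahydropterin synthase of the same route, named here after its values were seen, differed by 0.25 between double mutant and control (SE 0.17, adjusted p = 0.246) and rose in Sep2 mutant larvae (1.15, SE 0.18, adjusted p = 0.00199), where it was at 77.8 to 84.5 CPM against 25.5 to 47.3 CPM in the control.

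Among genes for other uses of tyrosine, ple, Ddc, b and e fell, and Tbh, Tdc1, amd and PPO3 rose. Of 13 tested, 4 rose and 4 fell, where 22.5% of all genes tested rose and 22.5% fell, with a median of 0.61. Genes that act in cuticle tanning did not all fall: t, which splits beta-alanyl dopamine, differed by 0.55 (SE 0.28, adjusted p = 0.118) and stw, a laccase, by 0.90 (SE 0.37, adjusted p = 0.0606), both named here after their values were seen. ple, the tyrosine hydroxylase that makes dopa, was at 1486, 1095, 639 and 1326 CPM in the control and at 22.3, 33.3, 21.2 and 91.8 CPM in the double mutant (-4.96, SE 1.13, adjusted p = 0.00361). Ddc, the dopa decarboxylase, fell (-3.20, SE 0.53, adjusted p = 0.000419), from 257 to 672 CPM in the control to 25.4 to 65.7 CPM. b, the aspartate decarboxylase that makes the beta-alanine of tanned cuticle, fell (-4.27, SE 0.82, adjusted p = 0.00127), to 3.35 to 4.51 CPM from 36.0 to 166 CPM. e, which joins beta-alanine to dopamine and is named here after its values were seen, fell (-5.58, SE 1.96, adjusted p = 0.0343). This call was lost without control replicates 1 (0.0804) and 2 (0.0820) and without double mutant replicates 1 (0.0884), 2 (0.0565), 3 (0.0727) and 4 (0.0516). It was also lost without the filter on low values (0.0742) and by voom on the recovered reads (0.0544). Beside ple, Ddc, b and e, 13 of the 15 ecdysone response genes fell, as given above. On the other side Tbh, the hydroxylase that makes octopamine, was at 1.79 to 3.08 CPM in the control and at 7.12 to 18.6 CPM in the double mutant (2.21, SE 0.28, adjusted p = 5.82e-05). Tdc1, a tyrosine decarboxylase that makes tyramine, rose (1.08, SE 0.25, adjusted p = 0.00329), as did amd, a relative of Ddc (1.54, SE 0.28, adjusted p = 0.000766). PPO3, a prophenoloxidase named here after its values were seen, rose (0.76, SE 0.29, adjusted p = 0.0434). That call was lost without control replicates 2 (0.0953), 3 (0.0786) and 4 (0.113), double mutant replicates 1 (0.100) and 4 (0.134), Sep5 mutant replicates 2 (0.0507) and 3 (0.0516) and Sep2 mutant replicates 1 (0.0510) and 2 (0.0510).

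Within the single mutants ple, e, b and Ddc varied widely between libraries. In the Sep5 mutant, ple was at 57.5, 1619 and 27.8 CPM and e at 1.498, 871 and 1.34 CPM in replicates 1 to 3. There b was at 25.7, 156 and 4.55 CPM, and Ddc at 172, 161 and 27.1 CPM. Replicate 2, the highest for ple, e and b but not for Ddc, had the lowest Hpd, hgo and Faa in that genotype, at 3.53, 2.54 and 11.6 CPM. In the Sep2 mutant, ple was at 958, 185 and 44.9 CPM and e at 283, 7.58 and 1.92 CPM, with b at 99.2, 30.3 and 26.1 CPM and Ddc at 372, 358 and 158 CPM. Replicate 3, the lowest there for all 4 genes, had the highest Hpd, hgo and Faa, at 6.32, 7.35 and 9.74 CPM. The control showed this order only in part. Its replicate 3 was lowest for ple (639 CPM) and b (36.0 CPM) and highest for hgo (8.40 CPM). It was also highest for Faa, at 11.6 CPM against 11.5 CPM in replicate 2. In replicate 4 Hpd, hgo and Faa were lowest, at 2.16, 0.660 and 3.15 CPM. Yet e was also lowest there, with 1689, 665, 119 and 118 CPM in replicates 1 to 4. Ddc was lowest in replicate 2, at 257 CPM. These 4 genes and these libraries were singled out after their values were seen.

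**Figure D4:**
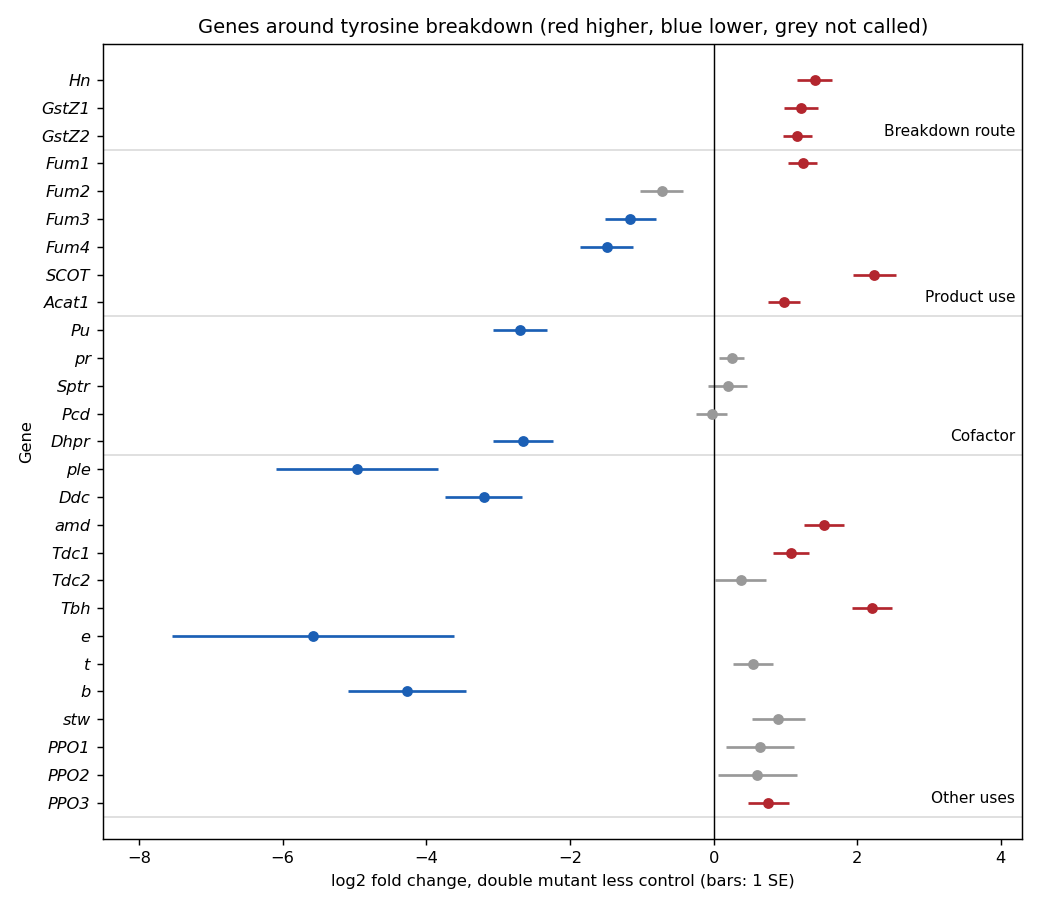
Log2 fold change of genes around tyrosine breakdown in the double mutant against the control, by limma over all genes. Points are estimates, bars are 1 SE on each side, red and blue mark genes called higher and lower at an adjusted p under 0.05, and grey marks genes not called. The 3 tested genes of the breakdown route lie at 1.17 to 1.41, SCOT at 2.24, and ple, Ddc, b and e at -3.20 to -5.58.

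Over all 4 lists around tyrosine, 11 of 28 tested genes rose and 8 fell in the double mutant against the control, without Hpd, hgo and Faa, where 45.0% of all genes tested were called, 22.5% in each direction. The median log2 fold change was 0.58. Against the Sep2 mutant, 7 rose and 5 fell, where 28.9% of all genes tested were called, 16.0% higher and 12.9% lower. Against the Sep5 mutant, 2 rose (GstZ2 and Tbh) and 2 fell (Pu and Dhpr), where 8.91% of all genes were called, 5.16% higher and 3.75% lower. This count was 2 without Sep5 mutant replicate 2 and 8 without Sep5 mutant replicate 3. In the Sep2 mutant against the control, 3 of 28 rose (Hn, GstZ1 and pr) and 0 fell, where 4.50% of all genes were called, 3.26% higher and 1.24% lower. For this pair of groups the replicate number was also used as a block, because same-numbered libraries deviated together. This choice was made from these same data and does not show a shared batch. The fit with the block leaves out control replicate 4, which has no partner. In it 8 were called, where 21.8% of all genes were: Hn (1.20), GstZ1 (1.53), pr (1.28) and Sptr (0.98) higher, and Fum2 (-0.75), Fum3 (-0.74), Fum4 (-0.76) and b (-0.89) lower. In the Sep5 mutant against the control, 3 rose (GstZ1, Fum1 and Acat1) and 0 fell, where 5.13% of all genes were called, 3.89% higher and 1.24% lower. That count was 1 without control replicate 1 or 2, 0 without Sep5 mutant replicate 1 or 3 and 10 without Sep5 mutant replicate 2.

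Enzymes that break down other amino acids were mostly higher in the double mutant too. Of 18 tested, 14 rose and 2 fell against the control, where 22.5% of all genes tested rose and 22.5% fell, with a median log2 fold change of 0.96. arg, the arginase, was at 1.10 to 3.09 CPM in the control and at 5.81 to 12.4 CPM in the double mutant (2.53, SE 0.35, adjusted p = 0.000104). v, the tryptophan dioxygenase that opens the route to eye pigment and kynurenine, rose (1.65, SE 0.28, adjusted p = 0.000535). LKRSDH, the first enzyme of lysine breakdown (1.01, SE 0.15, adjusted p = 0.000243), and Dbct, of branched-chain keto acid breakdown (2.23, SE 0.39, adjusted p = 0.000562), rose as well. Gnmt, the glycine methyltransferase that disposes of surplus methyl groups, rose (2.59, SE 0.43, adjusted p = 0.000388), and it was as high in the Sep2 mutant, at 56.8 to 68.8 CPM against 34.1 to 72.1 CPM in the double mutant and 3.72 to 22 CPM in the control. The call for Gnmt in the Sep2 mutant (2.98, SE 0.46, adjusted p = 0.00153) was lost with the replicate block (0.0620). Shmt, which interconverts serine and glycine, fell (-1.11, SE 0.19, adjusted p = 0.000570). The largest of these log2 fold changes, 2.59, was below that of Faa, which was chosen for its difference.

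The chromosomal neighbours of Hpd, hgo and Faa did not change as a block. Of 18 genes, 3 on each side of each enzyme, 3 rose and 2 fell in the double mutant against the control, or 27.8%, and 45.0% of all genes tested were called. Next to hgo, Gyc32E, a guanylate cyclase gene that ends 194 bases away on the other strand, rose (1.91, SE 0.30, adjusted p = 0.000309), from 0.841 ± 0.327 CPM in the control to 3.28 ± 0.580 CPM in the double mutant (SD, n = 4). CG31867, inside the span of Gyc32E, fell (-2.80, SE 0.48, adjusted p = 0.000544), and CG6287 fell (-1.71, SE 0.33, adjusted p = 0.00114). Next to Faa, Gad1, the glutamate decarboxylase that makes the transmitter GABA, ends 123 bases upstream of the start of Faa on the same strand and rose (0.94, SE 0.19, adjusted p = 0.00169). CG14990 rose as well (1.56, SE 0.23, adjusted p = 0.000200). None of the 6 neighbours of Hpd was called, with log2 differences from -0.25 for Psn to 0.38 for CG5910.

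The genes whose pattern over the 14 libraries was most like that of each enzyme were found by the root mean square difference of log2 CPM, centred on the control mean, among the 10007 genes whose mean was at least 2 log2 CPM. For hgo these were CG7881 (0.80), Cht9, a chitinase family gene (0.84), CG9757 (0.92), Hpd itself (0.95) and Mal-A4, a maltase gene (0.96), and Faa came 94th. For Hpd they were Cpr47Eb, a cuticle protein gene (0.59), CG42369 (0.65), CG7881 (0.68), Rh50, an ammonium transporter gene of the Rhesus family (0.70), and SmydA-4 (0.71). Faa came 15th and hgo 29th for Hpd. For Faa they were glob1, a globin gene (0.40), CG14445 (0.40), zetaTry, a trypsin family gene (0.42), CG14120 (0.42) and Fa2h, a fatty acid hydroxylase gene (0.44). Hpd came 263rd and hgo 3394th for Faa, whose change was smaller. CG7881 was among the nearest 5 for both dioxygenases and differed from the control by 4.90 in the double mutant, 0.37 in the Sep2 mutant and 1.54 in the Sep5 mutant on the log2 scale.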

How the data were processed

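RNA of 14 libraries was measured by bulk sequencing of polyadenylated RNA. The deposited table holds log2 CPM values, scaled between libraries by TMM in edgeR per the labels of the series. Per the submitters' processing notes, the authors used edgeR 3.40, STAR 2.7.11b, cutadapt 3.5 and FastQC 0.11.9, with dm6 and BDGP6 as builds. The read counter and its strand setting were not given in the sources used here.

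Whole reads were recovered from the deposited values for 100% of 250166 values within 0.01 reads, after the floor of -3.65 log2 CPM (0.0797 CPM) was taken off. The floor corresponds to an average of 2.00 reads added by the authors, which pulls fold changes of low genes towards 0. CPM values here are without it, and log2 values with it. Ratios and levels per kilobase use the union of exons of a gene in Ensembl release 115 of BDGP6, which placed 17790 of 17869 genes.

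The 12586 genes that exceeded 0 log2 CPM in 3 or more libraries entered 1 limma fit (version 3.58.1, R 4.3.3) of all 14 libraries by genotype, with a mean-variance trend and robust moderation. The labels of the series name quasi-likelihood tests on counts. These were not run here, since the deposited values are log2 CPM, and voom on the recovered reads was the alternative. p-values were adjusted by Benjamini-Hochberg over all tested genes, with 0.05 as the threshold, and "rose" and "fell" mean called by this test. Values beside a gene are log2 fold changes with the SE of the fit. The comparisons were each mutant against the control and the double mutant against each single mutant, so that 3 share the control libraries. On simulated reads over 12387 genes for the double mutant against the control, 76.8% of 99 genes changed 2-fold and 100% of 98 changed 4-fold were recovered, with 8 unchanged genes called. These reads were drawn with 1 fixed spread between libraries for every gene, a negative binomial dispersion of 0.05. The shares therefore do not carry over to genes that spread more, such as e (log2 SD 1.90 in the control).

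The enzymes and the gene lists were chosen with earlier results of these data known, and the ecdysone list after the table was seen. Of 124 list genes, 122 were matched, by symbol or by synonym in a RefSeq gene table, and AANAT1 and KFase were not. Named are all genes of the breakdown route, up to 6 called genes with the smallest adjusted p from each list on tyrosine or other amino acids, called neighbours and the 5 nearest patterns. Tissue markers are given by counts and sums. 5 genes, e, PPO3, pr, t and stw, were named outside this rule, and 1 gene of the lists, kept in the counts, is not reported here.

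Alternatives covered the filter, 1 added CPM, quantile normalization, centring on the library median, voom on the recovered reads, only the libraries of both groups, a replicate block and the omission of each library. The labels number replicates alike in each group without saying what a number shares. For the Sep2 mutant and the control, the deviations of libraries with the same number correlated at 0.305, 0.452 and 0.166. Each exceeds 0.1, and no other comparison met this in all its pairs. On this ground alone the numbers were treated as pairs for these groups, and the value with the block is printed where it changes a call there.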

Additional observations from a re-analysis of the deposited data

Results flagged for a closer look

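Of 72 sets of 4 libraries of 1 gene in 1 genotype, 4 held a library that stood apart from the other 3 by Dixon's criterion at 95%, which chance alone meets in about 1 of 20 sets. GstZ1 was at 3.56 log2 CPM in double mutant replicate 2, with the others at 2.704 to 2.84. Pu was at 6.39 in double mutant replicate 1, with the others at 5.96 to 5.997. Tdc1 was at 5.46 in double mutant replicate 4, with the others at 4.53 to 4.64. Shmt was at 7.72 in control replicate 1, with the others at 7.20 to 7.26. No library of Hpd, hgo or Faa stood apart in this way.

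Among Hpd, hgo, Faa, the named list genes and the called neighbours, 3 genes had every library of 1 mutant on the other side of the control mean from every library of another mutant. Genes outside this check did so too. PPO1, for example, was at most at 5.13 log2 CPM in the Sep5 mutant and at least at 6.25 in the Sep2 mutant, around a control mean of 5.59. PPO2 was at most at 6.28 and at least at 6.86 in the same groups, around 6.72. GstZ2 differed from the control mean by -0.30 on the log2 scale in the Sep5 mutant and by 1.17 in the double mutant, a gap of -1.47. Tbh differed by -0.18 in the Sep5 mutant and by 2.21 in the double mutant, a gap of -2.39. PPO3 differed by -0.43 in the Sep2 mutant, by 0.28 in the Sep5 mutant and by 0.76 in the double mutant, with gaps of -0.71 and -1.19 from the Sep2 mutant. The control cancels in such a gap, which is the difference between both mutants. By limma, the double mutant was higher than the Sep5 mutant for GstZ2 (adjusted p = 0.000997) and Tbh (adjusted p = 0.000322) and higher than the Sep2 mutant for PPO3 (adjusted p = 0.0116). The flag already required groups without overlap in the same libraries, so these p-values are no separate support. With the replicate block these calls were lost, at 0.0762 for GstZ2, 0.0762 for Tbh and 0.0983 for PPO3. The gap between both single mutants for PPO3 was not tested.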

How the results depend on the processing

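No alternative reversed a log2 difference of Hpd, hgo or Faa between the double mutant and another genotype. None moved a difference of these enzymes by more than the pooled SD of the groups compared. In groups of this size, leaving out 1 library cannot exceed that limit by arithmetic, so those alternatives could not have failed it. Leaving out 1 library gave 3.93 to 4.42 for Hpd, 4.67 to 5.84 for hgo and 2.46 to 3.07 for Faa in the double mutant against the control, whereas the small differences in the Sep2 mutant passed through 0, at -0.23 to 0.32 for Hpd and -0.51 to 0.16 for Faa. For the double mutant against the control, leaving out 1 library gave 4812 to 5708 called genes, 16 to 20 of the genes around tyrosine and 15 to 16 of the other amino acid enzymes. Of 600 alternative values for counts and for the 3 enzymes, 540 stayed within the limits set (1.5 times for a count, the pooled SD for a difference) and 60 moved. The 540 include the omissions of 1 library for the enzymes, whose outcome was fixed and which are no evidence of stability. Of 1407 for named genes 100 lost their call and 0 changed direction.

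The counts of the single mutants and of the double mutant against them were less stable. Leaving out 1 library gave 312 to 617 called genes in the Sep2 mutant against the control (566 with all), 238 to 1373 in the Sep5 mutant against the control (646), 2017 to 3793 in the double against the Sep2 mutant (3640) and 406 to 1195 in the double against the Sep5 mutant (1121). For genes around tyrosine it gave 2 to 4 (3), 0 to 10 (3) and 2 to 8 (4) in the Sep2 mutant, the Sep5 mutant and the double against the Sep5 mutant, and for other amino acid enzymes 1 to 2 (2), 0 to 4 (1) and 0 to 4 (3). With the replicate block, the called genes were 2741 in the Sep2 mutant, 1119 in the Sep5 mutant, 1548 in the double against the Sep2 mutant and 38 in the double against the Sep5 mutant. With the block, the genes around tyrosine were 8 for the Sep2 mutant and 0 for the double against the Sep5 mutant, and the other amino acid enzymes were 1, 0 and 0 in the Sep2 mutant, Sep5 mutant and double against the Sep5 mutant. In pairs other than control and Sep2 mutant, same-numbered libraries did not all deviate together (correlations from -0.405 to 0.394), so the block there joins libraries that share only a number. With only the libraries of both groups, 350 genes, 1 gene around tyrosine and 0 other amino acid enzymes were called in the Sep5 mutant, and 631 genes in the double against the Sep5 mutant. Among genes around tyrosine, 5 were called in the Sep5 mutant with quantile normalization. Among other amino acid enzymes, 1 was called in the Sep2 mutant after centring on the median, 2 in the Sep5 mutant by voom and 1 in the double against the Sep5 mutant without a filter. The cause of these moves was not tested, and some of these fits also held fewer libraries. Depth limits the control values of hgo most, with 18 to 166 reads per library.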
